A study of Mus musculus with 8 samples.

Results

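The Hox cluster genes were taken as the mouse genes whose symbol is Hox followed by a cluster letter, a to d, and a paralogue number. There were 39 of them among 20970 named genes on the array, 11 in HoxA, 10 in HoxB, 9 in HoxC and 9 in HoxD. They were found by matching the RefSeq transcript of each probe to its current symbol, and 44 probes represented them. Their RNA was measured in undifferentiated pluripotent cells on 8 one-colour Agilent arrays, 1 per RNA sample. One sample was of the embryonic stem cell (ESC) line B6J-23, 4 were OSKH iPSCs (induced pluripotent stem cells) and 3 were OSK iPSCs, the series' control group. Every sample has the strain label C57BL/6J. The letters OSK are read here as the reprogramming factors Oct4, Sox2 and Klf4, and H as the oocyte linker histone H1foo, although no label spells them out. Both iPSC groups thus share the OSK factors. The labels name neither the starting cells nor the vector, and leave unsaid whether the samples of 1 group came from different clones, lines or cultures. A p-value here therefore reflects sample-to-sample spread that may be only technical.

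Hox genes encode homeodomain transcription factors that give cells their position along the head-to-tail axis of the embryo. Within each cluster the genes lie in order of paralogue number, and low numbers are switched on earlier and further forward than high numbers. Their proteins bind DNA together with TALE cofactors of the Pbx, Meis and Pknox families. In pluripotent cells the clusters are known as targets of Polycomb repression that are held silent but ready, and retinoic acid, Wnt signals and Cdx factors activate them on differentiation.

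To show regulatory DNA of members described below, the 250 bases before the transcription start were searched for TGATNNAT, a form of the joint Pbx and Hox site, on both strands. RefSeq promoter entries of build GRCm38.p6 existed for 22 of the 39 genes, in 24 windows. The motif was present in 4 of the Hox windows (16.7%), against 7.68% of all 32851 windows of that length. The 3 shown here belong to genes tested on the arrays, are read 5′ to 3′ in the direction of the gene, and carry the match in capitals.
Hoxb1: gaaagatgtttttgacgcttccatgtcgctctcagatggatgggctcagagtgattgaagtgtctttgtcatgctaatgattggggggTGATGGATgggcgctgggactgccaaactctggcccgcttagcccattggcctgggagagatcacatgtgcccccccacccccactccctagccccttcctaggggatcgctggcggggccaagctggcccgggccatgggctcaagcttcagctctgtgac
Hoxa2: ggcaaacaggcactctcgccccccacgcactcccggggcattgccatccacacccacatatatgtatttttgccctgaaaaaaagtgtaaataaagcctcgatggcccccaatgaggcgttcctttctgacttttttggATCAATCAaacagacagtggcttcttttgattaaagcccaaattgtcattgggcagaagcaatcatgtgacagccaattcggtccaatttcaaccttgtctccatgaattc
Hoxb8: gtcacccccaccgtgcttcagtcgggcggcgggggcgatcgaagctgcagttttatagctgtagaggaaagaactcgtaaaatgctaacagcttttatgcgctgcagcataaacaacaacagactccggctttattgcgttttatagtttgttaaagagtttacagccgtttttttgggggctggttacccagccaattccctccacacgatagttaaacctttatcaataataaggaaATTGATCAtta
The Hoxb1 window is chr11:96365508-96365757 on the plus strand, and its match starts 162 bases before the start site. For Hoxa2 the window is chr6:52164832-52165081 on the minus strand, with a match to the other strand 111 bases upstream. The Hoxb8 window, chr11:96281655-96281904 on the plus strand, has its match on the other strand 11 bases upstream. The remaining match lay in a window of Hoxd11. The Hox windows held a median of 12.5 CpG pairs each (range 2 to 35), against 6 over all windows. A match describes letters only, and binding was not measured here.

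A Hox gene was counted as detected on an array if any of its probes was well above background by the scanner software's own test. Most members were dim. Only 6 genes were well above background on all 8 arrays, Hoxa7, Hoxb2, Hoxb4, Hoxb7 and Hoxb13 among them, against 13074 of 20970 named genes. A further 11 were detected on 3 to 7 arrays, which makes 17 that entered the statistical test. Another 9 were detected on 1 or 2 arrays and 13 on none. Of the 20970 named genes, 14390 were tested, 1332 were detected on 1 or 2 arrays and 5238 on none. The HoxB cluster was the most complete, with 9 of 10 genes tested and 0 undetected. In HoxA, 6 of 11 genes were tested and 4 undetected. By contrast, 1 of 9 HoxC genes and 1 of 9 HoxD genes were tested, and 3 and 6 of them were undetected on every array.

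**Figure D1:**
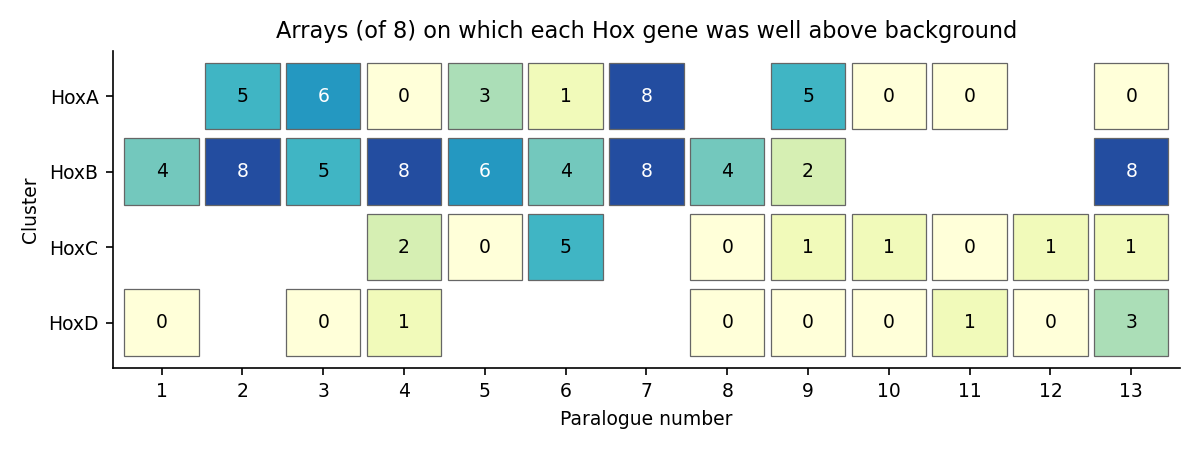
Each box is 1 of 38 Hox genes, placed by cluster (rows) and paralogue number (columns), and its number is how many of 8 arrays had it well above background. HoxB is filled from paralogue 1 to 8, and HoxC and HoxD hold mostly 0 and 1.

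Position in the cluster also went with detection in counts pooled over clusters, where number and cluster are mixed. Most members numbered 9 to 13 were HoxC or HoxD genes, and most numbered 1 to 4 were HoxA or HoxB genes. Within HoxA, Hoxa10, Hoxa11 and Hoxa13 were detected on 0 arrays. Within HoxD the order was the reverse, with Hoxd1 and Hoxd3 on 0 arrays, Hoxd4 on 1 and Hoxd13 on 3. Of the 12 members with paralogue numbers 1 to 4, which pattern the hindbrain and neck, 7 were tested and 3 were detected nowhere. Of the 11 central members, numbers 5 to 8, 7 were tested. Of the 16 posterior members, numbers 9 to 13, which pattern the lumbar, tail and limb regions, 3 were tested and 7 were detected nowhere. Those 3 were Hoxa9, Hoxb13 and Hoxd13. The undetected members were Hoxa4, Hoxa10, Hoxa11, Hoxa13, Hoxc5, Hoxc8, Hoxc11, Hoxd1, Hoxd3, Hoxd8, Hoxd9, Hoxd10 and Hoxd12. Missing detection is a statement about these probes. For Hoxa9, 1 probe was well above background on 5 arrays and its other probe on 1, so a dim probe does not show that a transcript is missing.

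The number of detected Hox genes differed widely between arrays of the same iPSC group. The ESC array had 11 of 39. On the OSKH arrays 1 to 4 there were 8, 16, 13 and 18, and on the OSK arrays 1 to 3 there were 9, 17 and 17. The groups overlap, since OSKH 2 and OSKH 4 stand with OSK 2 and OSK 3, and OSKH 1 stands with OSK 1. Over all named genes the detected share was 65.2% to 71.4% on the 8 arrays. OSKH 1, with the fewest Hox genes, had 67.7% of named genes detected, and OSKH 4, with the most, had 66.3%. HoxB genes numbered 4 on OSKH 1, 5 on OSK 1, 6 on OSKH 3, 8 on OSKH 2, 9 on OSKH 4 and OSK 3, and 10 on OSK 2. HoxA genes numbered 7 on OSKH 2, 6 on OSK 3 and 3 to 5 on the other iPSC arrays.

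**Figure D2:**
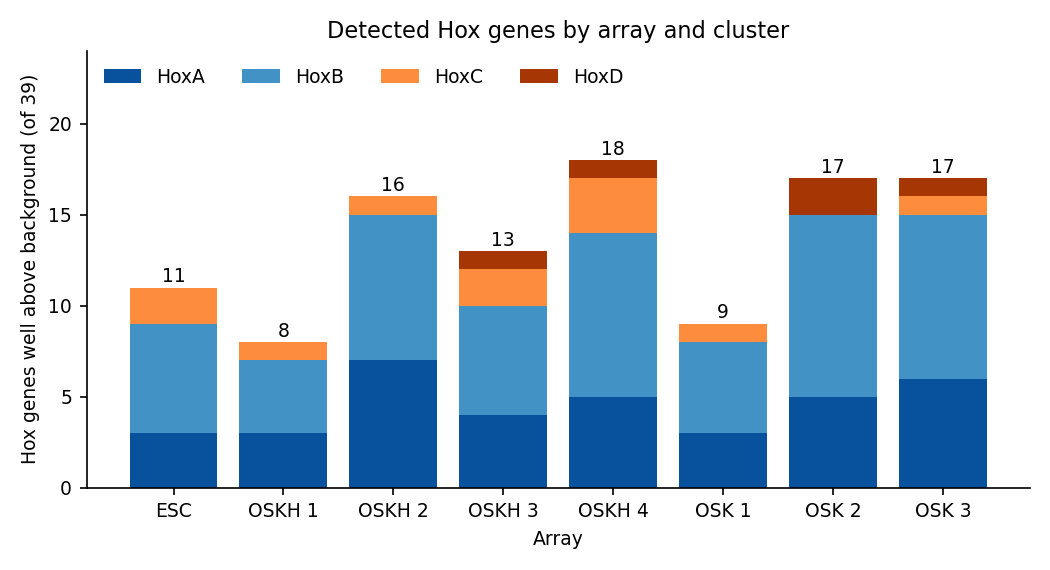
Bars show how many of the 39 Hox genes were well above background on each array, stacked by cluster, with the total above. The counts run from 8 on OSKH 1 to 18 on OSKH 4, and arrays of 1 group lie at both ends.

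Levels are log2 processed signals scaled so that 0 is the 75th percentile of each array. The lowest level well above background was between -5.02 and -4.05, depending on the array. A value near or below these is at the limit of the measurement. Levels of different genes come from different probes and are not compared with each other. In such bulk RNA, fewer cells that express a gene and less RNA per cell cannot be told apart.

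Among the anterior members, Hoxa2, which patterns the hindbrain and the second pharyngeal arch, was at -4.68 in ESCs and was not well above background there. It lay at -6.50, -2.75, -4.47 and -2.27 on OSKH 1 to 4 and at -4.87, -2.65 and -2.73 on OSK 1 to 3, the order used for every gene. It was high on OSKH 2, OSKH 4, OSK 2 and OSK 3, so the groups overlap fully. Hoxa3, needed for the thymus and parathyroid, followed with -3.09 in ESCs, -5.49, -1.89, -4.90 and -1.23 in OSKH, and -3.18, -0.79 and -1.74 in OSK. For Hoxa3 the arrays OSKH 1 and OSKH 3 were not well above background.

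The anterior HoxB genes split the arrays in much the same way. Hoxb1, which specifies a single hindbrain segment, was well above background on OSKH 2, OSKH 4, OSK 2 and OSK 3 only, at -4.05, -1.53, -2.83 and -4.20. On ESC, OSKH 1, OSKH 3 and OSK 1 it lay between -6.49 and -5.85. Hoxb2, a hindbrain gene measured on all 8 arrays, was at -3.19 in ESCs, -4.09, -1.24, -3.63 and -0.46 in OSKH, and -2.91, -0.28 and -0.75 in OSK. OSK 2 and OSKH 4 were the highest and OSKH 1 the lowest, and the iPSC arrays spanned 14-fold. Hoxb3 was at -4.54 in ESCs, -4.63, -3.52, -4.27 and -2.99 in OSKH, and -4.80, -3.34 and -3.84 in OSK. Its second probe ran from -7.08 to -3.65 and was well above background on OSKH 2, OSK 2 and OSK 3. Hoxb4, known for its effect on blood stem cells, was at -3.21 in ESCs, -3.47, -0.80, -2.70 and -2.22 in OSKH, and -2.17, -0.29 and -0.29 in OSK. Here OSK 2 and OSK 3 were equal and highest, and OSKH 4 was close to OSK 1.

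Among the central members, Hoxa5, a gene of lung and neck development, was detected on OSKH 2, OSK 2 and OSK 3 alone, at -3.90, -3.04 and -4.30, with the other arrays between -6.36 and -4.02. Hoxa7 was steadier, at -2.11 in ESCs, -2.59, -2.16, -2.82 and -1.72 in OSKH, and -2.85, -1.36 and -1.61 in OSK. Its 7 iPSC values spanned 2.79-fold. Hoxb5, a gene of the enteric nervous system, was at -4.10 in ESCs, -5.53, -1.97, -3.71 and -4.69 in OSKH, and -3.56, -1.36 and -1.54 in OSK. It was low on OSKH 4, where it was not well above background. Hoxb6 lay at -4.50 in ESCs, -5.21, -3.94, -4.70 and -3.41 in OSKH, and -4.82, -3.09 and -3.10 in OSK, and was detected on OSKH 2, OSKH 4, OSK 2 and OSK 3. Hoxb7 was at -3.38 in ESCs, -3.85, -3.00, -3.94 and -3.30 in OSKH, and -3.69, -2.94 and -2.51 in OSK, a span of 2.68-fold over the iPSCs. Hoxb8, known from myeloid progenitors, was detected on ESC (-3.84), OSKH 4 (-1.84), OSK 2 (-2.19) and OSK 3 (-3.21), with the other arrays between -5.48 and -4.39. Hoxc6, the 1 HoxC member tested, was at -2.71 in ESCs, -4.69, -4.16, -4.84 and -1.97 in OSKH, and -3.19, -4.25 and -3.84 in OSK. The ESC array and OSKH 4 stood highest for it.

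The split of OSKH 2, OSKH 4, OSK 2 and OSK 3 above the other iPSC arrays was not confined to anterior members. It also held for central Hoxa5, Hoxa7, Hoxb6, Hoxb7 and Hoxb8, but not for anterior Hoxb4 or for central Hoxb5 and Hoxc6. The posterior members that could be tested did not show it, although OSK 2 and OSK 3 were the highest arrays for Hoxb13 and Hoxd13. Hoxa9, known from leukaemia, was at -4.52 in ESCs, -4.29, -4.00, -3.75 and -3.45 in OSKH, and -4.35, -4.69 and -4.11 in OSK. Hoxb13, known from the prostate and tail, was measured on all 8 arrays, at -0.96 in ESCs, -1.05, -0.62, -1.91 and -2.63 in OSKH, and -0.84, 0.28 and -0.41 in OSK. OSKH 4, the highest or second highest array for many anterior genes, was the lowest for Hoxb13. Hoxd13, a gene of the digits, lay at -4.57 in ESCs, -4.66, -4.63, -4.39 and -5.18 in OSKH, and -4.40, -3.81 and -3.42 in OSK, and was detected on OSKH 3, OSK 2 and OSK 3.

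**Figure D3:**
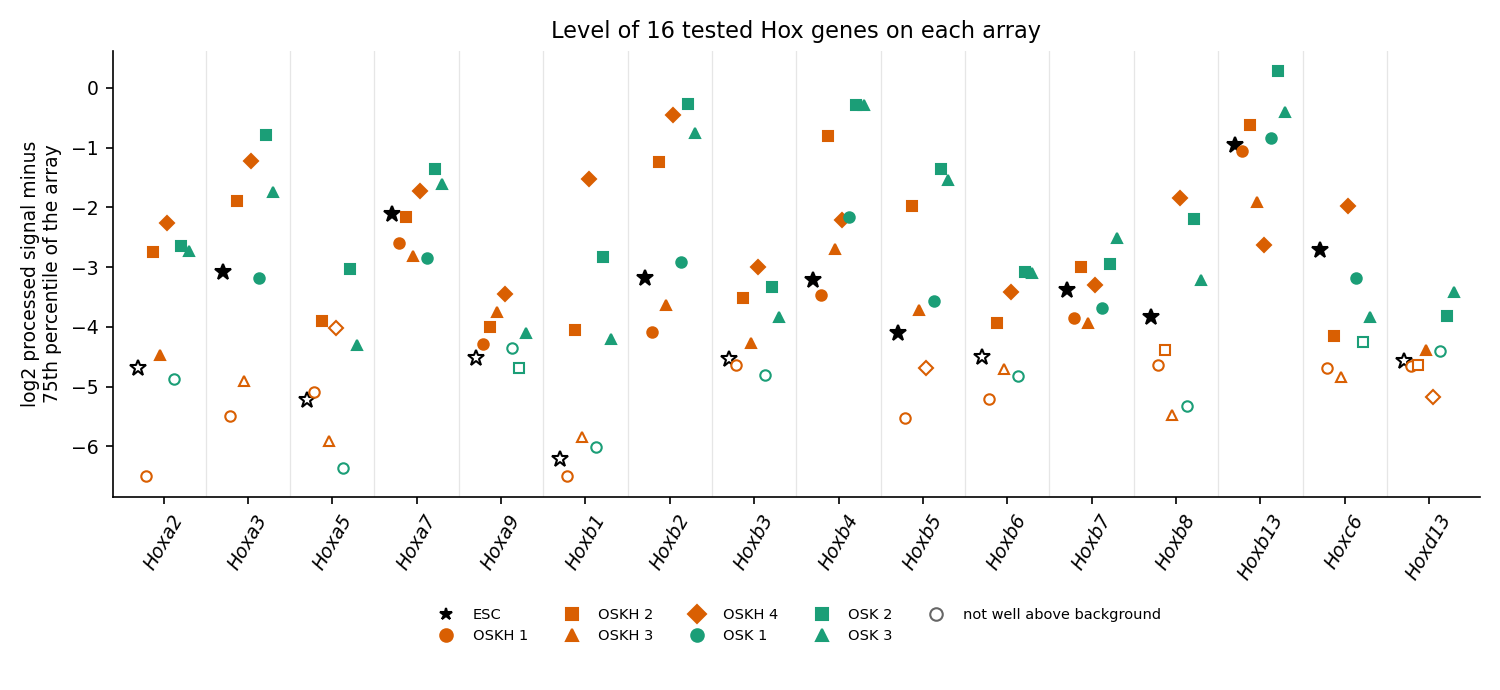
Points give the scaled log2 level, relative to each array's 75th percentile, of 16 tested Hox genes, with colour and shape marking the array and open symbols not well above background. OSKH 2, OSKH 4, OSK 2 and OSK 3 lie above OSKH 1, OSKH 3 and OSK 1 for anterior Hoxa2, Hoxa3, Hoxb1, Hoxb2 and Hoxb3. The same holds for central Hoxa5, Hoxa7, Hoxb6, Hoxb7 and Hoxb8, and OSKH 4 is at the bottom for Hoxb13 and Hoxd13.

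Detection on 1 or 2 arrays added members on OSKH 4 in particular. Hoxc9 was at -1.99 on OSKH 4, against -4.46 in ESCs and -6.45 to -6.07 on the other iPSC arrays, none of them well above background. Hoxd4 was likewise at -2.12 on OSKH 4 and between -6.10 and -4.38 elsewhere. Hoxb9 was detected on OSKH 4 (-2.74) and OSK 2 (-3.85), and Hoxc4 on ESC (-3.74) and OSKH 4 (-3.21). Other arrays had single members of their own, namely Hoxc13 on OSKH 1 (-3.38), Hoxa6 on OSKH 2 (-4.14), and Hoxc10 (-4.36) and Hoxc12 (-4.11) on OSKH 3. Hoxd11 was detected on OSK 2 alone, at -1.11, by 1 of its 2 probes. The other Hoxd11 probe read -6.27 on that array and was not above background, so the probes disagree.

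The array on which a gene was highest was OSK 2 for 8 of the 17 tested genes, OSKH 4 for 6 and OSK 3 for 3. Over all 22685 features these arrays were the highest in 8.11%, 11.1% and 12.7%. OSKH 1 was the lowest array for 8 of the 17, against 23.1% of all features. The median level of the 17 genes was -3.84 on ESC, -4.63, -3.00, -4.27 and -2.27 on OSKH 1 to 4, and -3.69, -2.65 and -2.73 on OSK 1 to 3, while the median of all features stayed between 0.07 and 0.10.

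Between the groups, no Hox gene passed the test. The means lay lower in OSKH than in OSK for 15 of 17 and higher for Hoxa9 and Hoxb3, with a median difference of -0.56 against -0.0135 for all features, 53.7% of which were lower in OSKH. Limma with Benjamini-Hochberg adjustment over 22685 features called 0 of 17 Hox genes and 0 features in all (0.0%), and the smallest adjusted p of a Hox gene was 0.732. Before adjustment, 2 Hox genes had a limma p under 0.05, against 1470 features (6.48%). One was Hoxd13, whose OSKH mean was -4.71 ± 0.33 (SD, n = 4) and whose OSK mean was -3.88 ± 0.50 (SD, n = 3). Its difference was -0.84 (SE 0.27, limma adjusted p = 0.732). The other was Hoxb13, with means of -1.55 ± 0.90 (SD, n = 4) and -0.32 ± 0.56 (SD, n = 3) in the same order. For it the difference was -1.23 (SE 0.51, limma adjusted p = 0.767). The OSKH and OSK values overlapped for 17 of 17 Hox genes. They did so for most of all features too, with 1665 (7.34%) not overlapping. The median moved with single arrays, to -0.33 without OSKH 1 or without OSK 3, -0.34 without OSKH 3, -0.36 without OSK 2, -0.95 without OSKH 4 and -1.22 without OSK 1.

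The larger differences had large errors. Hoxb5 differed by -1.82 (SE 0.92), with an OSKH mean of -3.97 ± 1.53 (SD, n = 4) and an OSK mean of -2.16 ± 1.22 (SD, n = 3). Hoxa3 differed by -1.48 (SE 1.19), Hoxb4 by -1.38 (SE 0.73) and Hoxb2 by -1.04 (SE 1.07). The smallest standard error was that of Hoxa9, whose OSKH mean was 0.51 (SE 0.23) above that of OSK, at an adjusted p of 0.769 in limma. For Hoxb1 the difference was -0.13 (SE 1.30). Slide row 1 held ESC and OSKH 1 to 3, and row 2 held OSKH 4 and OSK 1 to 3. With row as a block, the difference equals that of OSKH 4 from the 3 OSK arrays of its row. The Hox median was then 0.67, with 0 of 17 Hox genes called among 47 features called (0.207%).

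Over all features, arrays of the same number, 1 to 3, deviated together from their group means, so the groups were compared within pairs. No label gives this pairing. It was read from the same values that the paired fit tests, so the paired p-values are descriptive. In these 3 pairs, 11 of the 17 Hox genes were lower in OSKH in every pair, against 17.7% of all features, and 1 was higher in every pair, against 16.3%. Hoxb1 differed by -0.48, -1.22 and -1.65 in pairs 1 to 3, Hoxa3 by -2.31, -1.10 and -3.16, and Hoxb5 by -1.96, -0.61 and -2.17. With the replicate number as a block, the difference was -1.12 for Hoxb1, -2.19 for Hoxa3 and -1.58 for Hoxb5. In that fit 9 of 17 Hox genes had a limma p under 0.05 before adjustment, all 9 lower in OSKH, against 4.93% of all features lower and 10.3% in either direction. They were Hoxa2, Hoxa3, Hoxb1, Hoxb2, Hoxb4, Hoxb5, Hoxb6, Hoxb13 and Hoxd13, each lower in 3 of 3 pairs. Each had its largest difference in pair 3, where OSKH 3 had 13 detected Hox genes and OSK 3 had 17. After adjustment limma called 0 Hox genes and 0 of 22685 features, and the smallest adjusted p of a Hox gene was 0.39. OSKH 4 has no partner, so these paired values leave it out, and its median Hox level, -2.27, was the highest of the 8 arrays. In each pair the OSKH array lay in slide row 1 and the OSK array in row 2. Group and slide row therefore cannot be told apart in the paired values. Against the OSK arrays of its own row, OSKH 4 gave a Hox median of 0.67.

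**Figure D4:**
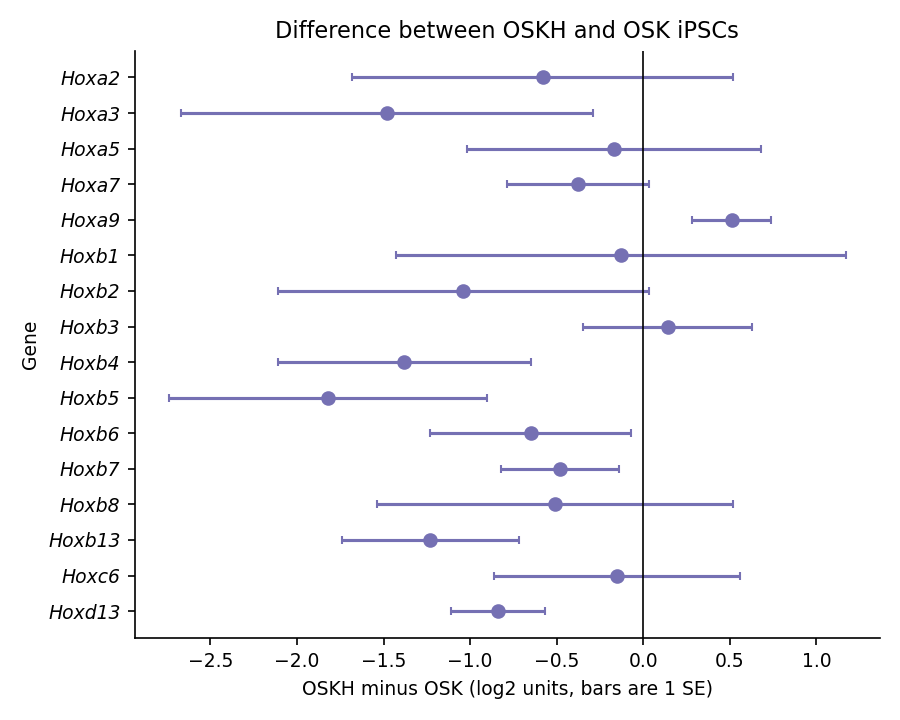
Points show the difference of the OSKH and OSK group means in log2 units for 16 tested Hox genes, with bars of 1 SE from limma (4 OSKH and 3 OSK arrays). All but Hoxa9 and Hoxb3 lie left of 0, and Hoxb1 has the widest bar at 1.30.

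The ESC array lay within the range of the 7 iPSC arrays for 17 of 17 Hox genes, as it did for 73.4% of all features. The mean of the iPSC groups was above ESC for 15 of the 17 and below for 2, with a median difference of 0.51 against -0.0492 for all features, 40.8% of which were higher in iPSCs. Limma called 0 of 17 Hox genes and 0 of 22685 features (0.0%), and 0 Hox genes had an unadjusted p under 0.05, against 1201 features (5.29%). The difference was 1.61 (SE 1.02) for Hoxb4 and -1.12 (SE 1.00) for Hoxc6, with limma adjusted p of 0.947 and 0.959. In ESCs 7 of the 17, Hoxa2, Hoxa5, Hoxa9, Hoxb1, Hoxb3, Hoxb6 and Hoxd13, were not well above background. Each of these was also below that mark on some iPSC arrays, so no fold over ESC is given for them. These ESC comparisons rest on 1 array and assume that ESC arrays vary like iPSC arrays.

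The spread within groups was wide for most of the tested Hox genes. The residual SD, the spread of arrays around their group mean, had a median of 1.11 log2 units over the 17 genes, from 0.334 for Hoxa9 to 1.99 for Hoxb1. Over all features the median was 0.196 and the 95th percentile 0.727, and 13 of 17 Hox genes lay above the latter. The exceptions were Hoxa7, Hoxa9, Hoxb7 and Hoxd13. Dim features vary more, so the same was read among the 10985 features whose mean level lay in the range of the Hox genes, from -4.73 to -0.07. Their median SD was 0.288 and their 95th percentile 0.861, which 11 of 17 Hox genes exceeded. Without OSKH 4 the median of the Hox genes was 1.20, and 10 of 17 lay above the 95th percentile of all features. With normexp background correction it was 0.521 against 0.142 for all features, and 10 of 17 were above. With the replicate number as a block it was 0.579 against 0.135, and 9 of 17 were above. These are descriptions, since a gene that passed the filter through a few bright arrays had to vary.

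**Figure D5:**
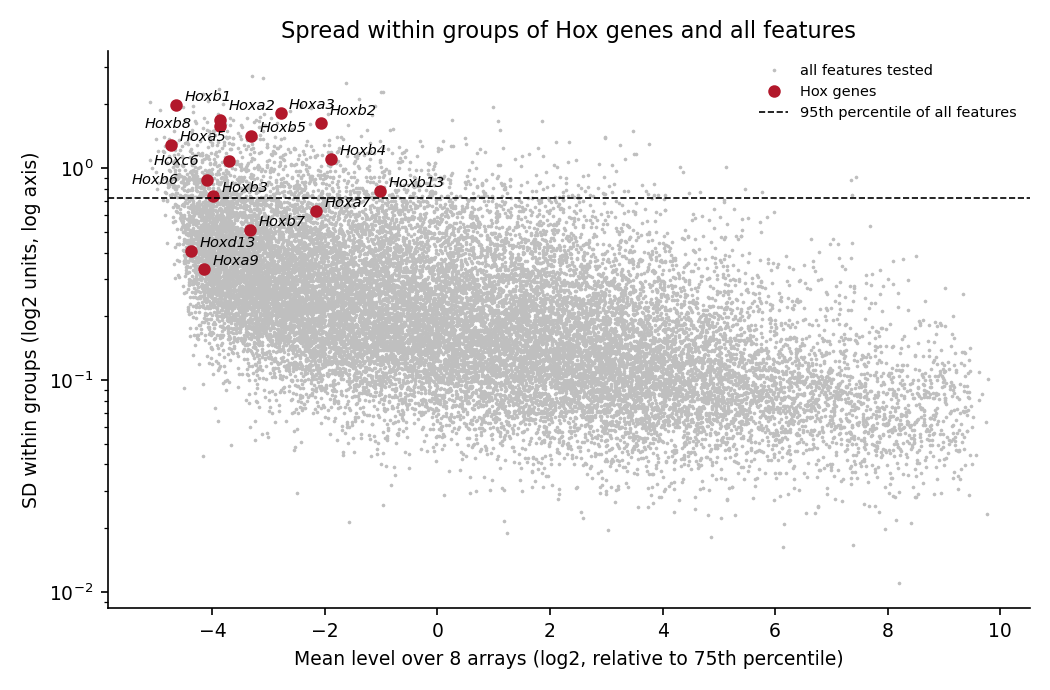
Each grey point is 1 tested feature and each red point 1 of 16 Hox genes, with the mean level over 8 arrays across and the SD within groups on a log axis. The dashed line is the 95th percentile of all features (0.727), and 12 of the Hox genes shown lie above it.

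Over the 7 iPSC arrays, the distance from the lowest to the highest had a median of 3.11 log2 units for the Hox genes and 0.57 for all features. It exceeded 2 log2 units in 12 of 17 Hox genes, against 5.62% of all features. Of 14 tested genes beside the clusters, 1 had an iPSC distance over 2 log2 units, Calcoco2 near HoxB, at 2.73. Picked out after its values were seen, it had a residual SD of 1.04 and was lowest on OSK 3 (-0.30) and OSKH 2 (-0.20) and highest on OSKH 4 (2.43) and OSKH 1 (2.35). The median residual SD of the 14 was 0.168, with Skap2, next to HoxA, at 3.13 in ESCs, 3.13, 3.38, 2.92 and 2.91 in OSKH, and 3.27, 3.66 and 3.55 in OSK. Limma called 0 of these 14, and 7 were higher and 7 lower in OSKH. The antisense RNA Hoxa11os was measured on all 8 arrays, between -3.44 and -1.95, with OSK 2 the highest. OSKH minus OSK was -0.44 for it (SE 0.33, limma adjusted p = 0.875).

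By the medians of their lists, the regulators known to act on Hox clusters varied less across arrays. Most of their probes were brighter than the Hox probes, and dim features vary more, so this contrast is not matched for level. The 12 tested genes of Polycomb repressive complex 2, which methylates histone H3 at silent clusters, had a median residual SD of 0.173, and limma called 0 of them. Its enzyme Ezh1 differed by -0.13 (SE 0.11). Phf19 of the same complex had a residual SD of 0.82, with levels from -0.54 to 1.73. The 16 tested genes of Polycomb repressive complex 1 had a median residual SD of 0.208 and a median difference of -0.10. Of them 14 were lower and 2 higher in OSKH with 0 called, while 53.7% of all features were lower. Pcgf5 had the smallest p among them, with a difference of 0.31 (SE 0.12, limma adjusted p = 0.752). Of 11 trithorax genes and H3K27 demethylases, which oppose Polycomb, 0 were called, the median residual SD was 0.181, and Kmt2b differed by -0.19 (SE 0.08).

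Cofactors and upstream activators varied more. The 9 TALE cofactors had a median residual SD of 0.405, with 0 called, 6 higher and 3 lower in OSKH, and Pknox2 differed by -0.47 (SE 0.31). Of the 8 ParaHox and Evx genes, the homeobox relatives of the clusters, 4 were tested, with a median residual SD of 1.52. Gsx1, a neural ParaHox gene, had the smallest p, at -2.86, -1.41, -3.89 and -3.89 in OSKH and -0.91, -0.64 and -0.73 in OSK. Its groups did not overlap, but it was not called, at -2.25 (SE 0.60, limma adjusted p = 0.732). The 15 tested genes of the retinoic acid pathway had a median residual SD of 0.362 with 0 called, and the receptor Rarg differed by -0.40 (SE 0.13, limma adjusted p = 0.732). The 6 tested genes of the posterior growth zone, where Hox clusters are switched on in the embryo, had a median of 1.07 with 0 called, and Nkx1-2 differed by 0.60 (SE 0.55).

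Some of these activators were high on OSKH 4 and were picked out after their values were seen. Cdx2, a direct activator of central Hox genes, was at 0.23 on OSKH 4 and at -2.64 on OSK 2, against -5.99 to -2.96 elsewhere. Meis1 was at -0.35 on OSKH 4 and -4.09 to -2.03 elsewhere, and Meis2 at 0.41 against -3.66 to -1.13. T, the brachyury gene of the primitive streak, was at 3.71 on OSKH 4, against -2.68 to 0.21 elsewhere. Cdx2 and T were lower on the other arrays, and Cdx2 was well above background on 4 of 8. OSK 2, with 17 detected Hox genes, had Cdx2 at -2.64 and T at -1.22. OSKH 2 and OSK 3, with 16 and 17 detected Hox genes, had Cdx2 at -4.87 and -4.08 and T at -1.83 and -2.05. OSKH 3, with 13, had them at -5.33 and -1.50. OSKH 1 and OSK 1, with 8 and 9, had Cdx2 at -5.99 and -5.34 and T at -2.61 and -2.68. A link of Cdx2 or T with the Hox levels was not tested.

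Markers of other cell types moved with some of these arrays. Summed levels of a list are given on the linear scale relative to the 75th percentile. The pluripotency markers were detected on all arrays for 10 of 10 genes, and their sum ran from 633 to 909, with 862 in ESCs, 633 to 909 in OSKH and 691 to 791 in OSK. The mesoderm markers summed to 29.3 on OSKH 4, 7.36 to 9.38 on the other OSKH arrays, 7.57 to 9.73 in OSK and 10.7 in ESCs, and Hand1 was well above background on 0 arrays. Kdr, at 2.76 to 3.29 on every array, made up most of the mesoderm sum outside OSKH 4, so that sum says little about T or Eomes there. The endoderm markers summed to 26.6 on OSKH 4, 0.327 to 0.572 on the other OSKH arrays, 0.174 to 0.337 in OSK and 2.17 in ESCs. Foxa2, at 4.03 on OSKH 4, was the largest part of its endoderm sum. Of 6 mesoderm markers on the array 3 were tested, and of 6 endoderm markers 2. Fibroblast and feeder markers, 9 of 12 tested, summed to 8.68 to 25.4 in OSKH, 5.63 to 10.7 in OSK and 23.7 in ESCs, and 9 of 9 were higher in OSKH with 0 called. Thy1, at 2.49 and 3.44, made up most of that sum on OSKH 1 and OSKH 3. OSKH 4 was the highest OSKH array for every tested marker of this list except Thy1, so the direction of these means leans on it. Col1a1 was at -1.38, -1.14, -1.25 and 1.72 in OSKH and at -1.86, -1.18 and -1.01 in OSK. The 6 neural markers summed to 12.4 to 15.2 in OSKH, 14.9 to 17 in OSK and 15.5 in ESCs. Of these, 6 of 6 were lower in OSKH with 0 called, while 53.7% of all features were lower in OSKH. OSKH 4 thus had the highest sums of mesoderm, endoderm and fibroblast markers together with the most detected Hox genes. OSK 2 and OSK 3, with 17 detected Hox genes each, had mesoderm sums of 8.06 and 9.73 and endoderm sums of 0.219 and 0.337. The part of these cells in the Hox levels was not tested.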

How the data were processed

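Per the labels, total RNA was amplified, labelled with Cy3 and hybridised 1 sample per array. All 8 arrays lay on 1 slide. The scanner software was Agilent Feature Extraction 11.5.1.1, per the file headers. Its deposited intensity is a background-subtracted processed signal. Flags in the same deposited files are 0 or 1. The deposited value table is on a log2 scale and differed from the log2 of that signal by a fixed amount on each array, within 0.01 for 100% of 55667 probes (column medians -3.71 to -3.60), so its scale, direction and lack of centring per gene are settled. The headers give build mm9 for the probe annotation.

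After removal of control and outlier spots, each probe's spots were averaged. Each array was scaled by its 75th percentile (424.4 to 501.4). Of the probes, 51.4% to 59.0% were well above background, and 0 were saturated. RefSeq transcripts, without versions, named 27650 probes and 28017 stayed unnamed. The probe with the highest mean stood for a gene. A feature needed 3 of 8 arrays well above background, and the 22685 that had them were tested in limma 3.58.1 under R 4.3.3 (lmFit, eBayes, Benjamini-Hochberg over all features, threshold 0.05), with 5 residual and 1.85 prior degrees of freedom. The number of arrays limits the precision. The fit was tested on simulated data.

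Deviations from the group mean of OSKH and OSK arrays of the same number correlated at 0.465, 0.259 and 0.45. Those of different number correlated at -0.393 to 0.156, the highest being OSKH 2 with OSK 3. The numbers were taken to pair the arrays on these values alone, and paired values stand beside the unpaired ones. Same-numbered arrays also share a slide column. Normexp, with an offset of 50, was run on the median signals, the columns these files hold, in place of mean signals. Alternatives changed the background correction, scaling, filter, probe choice and block, or left out 1 array. Named genes were the Hox genes by the detection rule above and, of other lists, the 1 or 2 with the smallest p. The values of 1 member are not reported here, though it is in the counts and medians. Members and lists were chosen with earlier results of these data known.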

Additional observations from a re-analysis of the deposited data

Results flagged for a closer look

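In the 4 OSKH arrays, 46 genes (39 Hox genes and 7 of other lists) were searched for an array standing apart, by the ratio of its gap to the whole range (Dixon's 95% critical value), and 7 were found. Chance gives about 1 in 20 such groups. The 7 genes of other lists were chosen by hand with results of these data known, so that rate does not apply to them. Of the genes found, 5 were Hox genes. The search was not run over all features, so it does not show whether this count is particular to Hox genes. Many Hox values searched lay below background, which limits the rate there too. OSKH 4 stood high for Hoxc9 (-1.99), Hoxd4 (-2.12), Evx1 (0.21) and Cyp26a1 (2.65). It also stood apart for Hoxc5 (-4.82) and Hoxd9 (-4.31), 2 genes detected on 0 of 8 arrays, and OSKH 3 did for Hoxd11 (-6.84), below background there.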

How the results depend on the processing

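Of 18 alternatives, 7 left out 1 array. Under them 0 of the 17 Hox genes were called, and their lowest limma adjusted p was 0.255. With slide row as a block, 47 features were called (38 higher and 9 lower in OSKH) and the Hox median was 0.67, with differences of 1.15 for Hoxa2, 0.67 for Hoxa3, 0.55 for Hoxa5, 0.22 for Hoxa7, 2.82 for Hoxb1, 0.85 for Hoxb2, 0.26 for Hoxb6, 1.73 for Hoxb8, 1.79 for Hoxc6 and 0.06 for Pknox2, because this fit sets OSKH 4 alone against OSK. Normexp turned Hoxa5 to 0.01, Hoxb1 to 0.03 and Hoxc6 to 0.03, and gave a Hox median of -0.21 between the iPSC groups and 0.06 for iPSC minus ESC. Hoxb3 was -0.28 with the mean of its probes and -0.15 with the replicate block. That block, which pairs arrays by number, called 0 features and changed no other call, with a Hox median of -0.95 and, from 2 residual degrees of freedom, a median residual SD of 0.579. The SD with normexp was 0.521. Without a filter, iPSC minus ESC gave 12 calls among 36979 features; the cause was not tested. The residual SD and the differences within pairs were added after seeing the data.

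Leaving out 1 array gave -1.30 to 0.25 for Hoxa2, -1.06 to 0.60 for Hoxa5, -1.12 to 0.63 for Hoxb1, -0.26 to 0.46 for Hoxb3, -1.39 to 0.18 for Hoxb8 and -0.80 to 0.16 for Hoxc6. The Hox medians ran from -1.22 to -0.33 (OSKH minus OSK) and from 0.34 to 0.79 (iPSC minus ESC), and the residual SD from 0.974 to 1.22. With the stricter filter of all 8 arrays, 6 Hox genes were left, with a median of -0.80. Dim signal limits most members.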
